A study of Homo sapiens with 12 samples.

Results

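The genes described here encode the proteins of the cytosolic ribosome. They were taken by symbol (RPL, RPS, RPLP0 to RPLP2 and RPSA, with pseudogene names and the RPS6 kinases left out), which gave 84 of the 56227 entries of the expression table. Of these, 81 passed the filter on low values, which was at least 1 TPM (an abundance scaled for transcript length and library size) in at least 3 of the 12 libraries. The other 3 were RPL3L, RPL10L and RPL39L. RNA was sequenced from HT1080, an established human fibrosarcoma line whose NRAS gene carries the activating Q61K change. The 4 groups of 3 libraries were siRNA against NRAS Q61K (siQ61K) with poly(dA:dT), control siRNA (siNC) with poly(dA:dT), siQ61K with DMSO, and siNC with DMSO. Poly(dA:dT) is a synthetic double-stranded DNA that cells sense in the cytosol, and the groups without it had DMSO. The sample titles do not name a vehicle. All groups share the same line, and the siRNAs act on cultured cells for a limited time, so none is a stable genetic model. Whether the 3 libraries of a group come from separate cultures is not given in the labels, so the spread behind each p-value may be technical.

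A human ribosome has a small subunit, which reads the mRNA, and a large subunit, which joins amino acids. Most of their proteins are needed in equal numbers, and in growing cells the mRNAs of ribosomal proteins are among the most abundant. Most of these mRNAs begin with a 5' terminal oligopyrimidine tract (TOP), a C followed by a run of C and T bases, through which mTORC1 and LARP1 adjust their translation. MYC raises ribosomal protein transcription, and RAS signalling through ERK and RSK acts on ribosomal protein S6.

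NRAS, the targeted gene, had 20.1, 20.3 and 23.5 TPM in siQ61K poly(dA:dT), 43.0, 45.9 and 51.7 TPM in siNC poly(dA:dT), 15.5, 15.2 and 19.9 TPM in siQ61K DMSO and 59.6, 60.6 and 41.4 TPM in siNC DMSO. The siQ61K and siNC values do not overlap. These values are for the whole gene, so loss of the Q61K transcript in particular is not shown. Below, mutant NRAS knockdown names treatment with siQ61K. The 6 mesenchymal markers, genes that cells of this lineage can express, summed to between 9072 and 14717 TPM. VIM (mean 5953 TPM) and LGALS1 (3646 TPM) were the highest of them, and THY1 was nearly absent (0.0331 TPM). Epithelial, leukocyte, endothelial and erythroid markers summed to at most 1.28 TPM in any library. Depth is unknown because TPM keeps none. In a principal component analysis of the 81 genes, the first component held 61.0% of the variance. Along it, siQ61K poly(dA:dT) replicate 1 scored -0.05 against 3.03 and 2.91 for the other replicates of its group. On the same axis siNC DMSO replicate 3 scored 0.31 against 2.21 and 1.49. Counts below are therefore also given without both of these libraries. They were picked from the members' own values, so their removal can narrow the spread within groups and favour more calls.

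Of 7 members with calls described below, 4 had a TOP start at the annotated site used and 3 did not. Their start sites are shown because the TOP tract is the sequence this gene family shares. They were chosen after their values were seen. RefSeq (GRCh38.p14) gave a start window for 67 of the 84 genes. Each line holds 10 bases before and 20 after the annotated start, 5' to 3', with the longest run of pyrimidines in capitals.
RPL39: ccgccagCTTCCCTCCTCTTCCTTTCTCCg
RPS21: ctagctgCTTCCTTTCTCTCTCgcgcgcgg
RPL37A: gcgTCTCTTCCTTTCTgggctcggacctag
RPL21: ccgCCTCTTTCCTTTCggccggaaccgcca
RPS29: agcgcgcagctggcagcggtggttgTTTCT
RPS28: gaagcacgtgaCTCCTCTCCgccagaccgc
RPS7: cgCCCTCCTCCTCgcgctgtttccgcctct
The windows are chrX:119791611-119791640 on the minus strand for RPL39, chr20:62387093-62387122 on the plus strand for RPS21, chr2:216498834-216498863 on the plus strand for RPL37A, chr13:27251548-27251577 on the plus strand for RPL21, chr14:49598691-49598720 on the minus strand for RPS29, chr19:8321486-8321515 on the plus strand for RPS28 and chr2:3575250-3575279 on the plus strand for RPS7. RPL39, a very small protein that lines the exit tunnel, had a run of 22 pyrimidines. At the annotated starts of RPL39, RPS21, RPL37A and RPL21 a C was followed by at least 4 pyrimidines, and at those of RPS29, RPS28 and RPS7 it was not. Such a start was found in 43 of 67 members (64.2%) and in 1104 of 27305 genes of the RefSeq table (4.04%). A run of at least 8 pyrimidines within 20 bases of the start was found in 79.1% of members and 17.3% of all genes. The letters CACGTG, the core of the motif bound by MYC and MAX, stood on either strand of the 300-base promoter in 4 of 67 members (5.97%) and in 7.43% of all genes. These matches describe the windows and say nothing of use of the start in these cells.

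Together the 84 genes made up about 1 in 4 of all TPM, and their share was highest after mutant NRAS knockdown with poly(dA:dT). It was 26.5%, 28.2% and 26.8% in the siQ61K poly(dA:dT) libraries, 24.1%, 25.0% and 23.8% in siNC poly(dA:dT), 25.4%, 24.7% and 22.0% in siQ61K DMSO, and 24.5%, 23.2% and 24.3% in siNC DMSO. Each siQ61K poly(dA:dT) library stood above each of the other 9. Group means were 27.2% ± 0.913 in siQ61K poly(dA:dT), 24.3% ± 0.650 in siNC poly(dA:dT), 24.0% ± 1.82 in siQ61K DMSO and 24.0% ± 0.683 in siNC DMSO (SD, n = 3 each). No test is given for a sum over genes chosen with earlier results known. Summed TPM of large-subunit genes (without the stalk) was 1.21 to 1.27 times that of small-subunit genes in every library. The summed mesenchymal markers were 9072 to 11017 TPM in siQ61K poly(dA:dT), lower than the 11943 to 14717 TPM of the other 9 libraries, and their part in the share was not tested. For poly(dA:dT) against DMSO under siQ61K, 1 of the 5 tested markers, FN1, had a log2 fold change above 0 (0.16). All libraries are of the same line, and in bulk RNA fewer cells of a given state and less RNA per cell cannot be told apart.

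**Figure D1:**
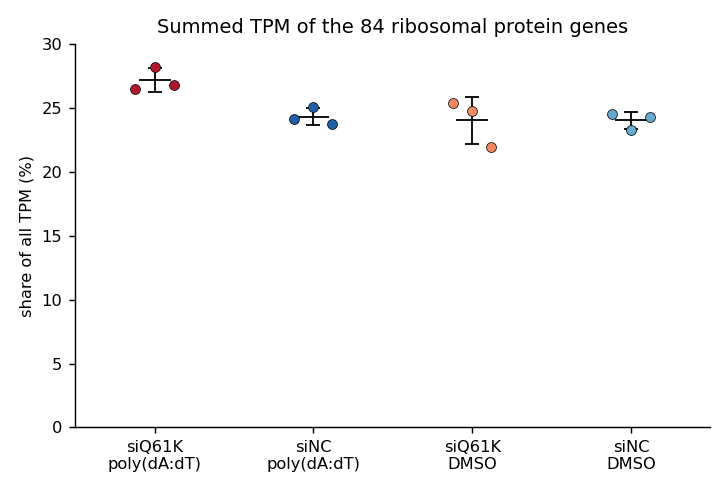
Share of all TPM (%) held by the 84 ribosomal protein genes, with a point for each library and the mean and SD of each group of 3 in black. The siQ61K poly(dA:dT) libraries lie between 26.5% and 28.2%, above the other 9 libraries.

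Levels spread widely among the members. The highest mean levels over the 12 libraries were those of RPS2 (7049 TPM), a small-subunit protein near the mRNA entry, RPS19 (6859.8 TPM), RPS21 (6228 TPM), RPL41 (6099.6 TPM) and RPL37A (5902 TPM). The median of the 81 means was 2985 TPM. Far below these stood RPS27 (34.4 TPM) and RPL26 (71.9 TPM), although each encodes a standard ribosomal protein. Whether reads of these genes were assigned to other entries was examined only for pseudogenes. RPL10, which joins the large subunit late in its assembly, was the steadiest, with a coefficient of variation of 4.11% over all libraries and a range of 4447 to 5174 TPM. Among tested genes variation was greatest for RPL21 (56.3%), RPL36A (47.5%) and RPS29 (43.9%). The highest library was under 1.5 times the lowest for 35 genes and over 2 times for 20.

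Mutant NRAS knockdown without poly(dA:dT) moved ribosomal protein genes in both directions. Of the 81, 18 were called higher and 14 lower in siQ61K DMSO than in siNC DMSO (limma, adjusted p under 0.05), against 16.6% higher and 14.8% lower among all 14722 genes tested (31.5% in all). The 18 are 22.2% and the 14 are 17.3% of the members, so the shares lie close to those of all genes. The median log2 fold change was 0.05 for members and 0.01 for all genes. Without siQ61K poly(dA:dT) replicate 1 and siNC DMSO replicate 3 the counts were 22 higher and 18 lower. They were 11 and 9 without siQ61K DMSO replicate 1 and also without siNC DMSO replicate 1, 11 and 10 without siNC DMSO replicate 2, and 22 and 9 without siQ61K DMSO replicate 3.

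RPS29, a zinc-binding protein of the small-subunit head, had 1784, 1475 and 1378 TPM in siQ61K DMSO, against 4356, 3346 and 5157 TPM in siNC DMSO. These values do not overlap, and RPS29 fell by 1.46 on the log2 scale (SE 0.18, adjusted p = 9.76e-05). RPS21, another small-subunit protein, had 4846, 4695 and 3485 TPM in siQ61K DMSO, against 7927, 7176 and 7509 TPM in siNC DMSO. All 3 siQ61K libraries were lower, at -0.81 on the log2 scale (SE 0.15, adjusted p = 0.00162). RPL21 had the lowest fold change of all members, -1.65 (SE 0.31, adjusted p = 0.00178), and shares its sequence with another entry, described further on. RPL39 (-0.77), RPL37A (-0.69) and RPL31 (-0.67) also fell. In the other direction, RPS2 had 9863, 9303 and 7656 TPM in siQ61K DMSO, against 5022, 4868 and 6515 TPM in siNC DMSO. Its groups do not overlap, and it rose by 0.71 (SE 0.19, adjusted p = 0.0112). RPS28, a small-subunit protein at the mRNA exit, had 3957, 4262 and 3229.7 TPM in siQ61K DMSO, against 2419, 2173 and 2563 TPM in siNC DMSO, a rise of 0.67 (SE 0.14, adjusted p = 0.00398). RPL36 had a similar log2 fold change of 0.67 and was not called (SE 0.24, adjusted p = 0.0526). The exact two-sided permutation test gives p = 0.1 for each pair of groups of 3 that do not overlap, the smallest it can give. Calls of RPS29, RPS21, RPL39, RPL37A, RPL21, RPS2 and RPS28 were made whichever 1 of the 12 libraries was left out, and that of RPL31 was lost without siQ61K DMSO replicate 1 or 3 or siNC DMSO replicate 1, 2 or 3 (highest adjusted p = 0.121).

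With poly(dA:dT) present, knockdown of mutant NRAS went mainly with higher ribosomal protein mRNAs. In siQ61K poly(dA:dT) against siNC poly(dA:dT), 14 of 81 were called higher and 2 lower, against 8.71% higher and 12.6% lower of all genes tested (21.4% in all). Those are 17.3% and 2.47% of the members. Their median log2 fold change was 0.08, and that of all genes was -0.07. Without siQ61K poly(dA:dT) replicate 1 and siNC DMSO replicate 3 the counts were 23 higher and 13 lower, so the number called lower rests on siQ61K poly(dA:dT) replicate 1, without which alone it was 11. The number called higher was 6 without siQ61K poly(dA:dT) replicate 2, 6 without replicate 3 of that group, 7 without siNC poly(dA:dT) replicate 1 and 9 without siNC poly(dA:dT) replicate 3.

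RPS29 had 3237, 4286 and 4313 TPM in siQ61K poly(dA:dT), against 1753, 2294 and 2438 TPM in siNC poly(dA:dT). Every siQ61K library was the higher here, and RPS29 rose by 0.87 (SE 0.18, adjusted p = 0.00384). RPL39 had 3393, 5639 and 4606 TPM in siQ61K poly(dA:dT), against 2382, 2595 and 2776 TPM in siNC poly(dA:dT), and rose by 0.79 (SE 0.18, adjusted p = 0.00722). RPS27A, made as a fusion with ubiquitin, rose by 0.74 (SE 0.17, adjusted p = 0.00693), and RPS27L, a paralog of RPS27, by 0.77 (SE 0.13, adjusted p = 0.00147). RPS21 (0.55) and RPL37A (0.52) rose as well. The 2 called lower were RPS7 and RPS27. RPS7, a small-subunit protein that can bind MDM2, had 839.6, 714 and 636 TPM in siQ61K poly(dA:dT), against 1146, 1474 and 1146 TPM in siNC poly(dA:dT). It fell in siQ61K, with no overlap, at -0.78 on the log2 scale (SE 0.17, adjusted p = 0.00574). RPS27 had 26.7, 23.3 and 27.1 TPM in siQ61K poly(dA:dT), against 44.6, 40.0 and 39.6 TPM in siNC poly(dA:dT), a log2 difference of -0.67 (SE 0.13, adjusted p = 0.00378). With its near-identical copies added it had -0.31 and was not called (adjusted p = 0.177). Calls of RPS29, RPL39, RPL37A, RPS27A, RPS27L, RPS7 and RPS27 were made whichever 1 library was left out, and that of RPS21 was lost without siQ61K poly(dA:dT) replicate 2 or 3 or siNC poly(dA:dT) replicate 1 (highest adjusted p = 0.0841).

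Poly(dA:dT) alone, under the control siRNA, gave no called member. In siNC poly(dA:dT) against siNC DMSO, limma called 0 of 81 higher and 0 lower, against 0.0747% higher and 0.0475% lower of all genes (0.122% in all). At an unadjusted p under 0.05 it called 14 higher and 9 lower members, against 760 higher and 880 lower of all 14722 genes. RPS29 came nearest, with 1753, 2294 and 2438 TPM in siNC poly(dA:dT) against 4356, 3346 and 5157 TPM in siNC DMSO and a log2 difference of -0.98 (SE 0.18, adjusted p = 0.0616). RPS28 followed, at 0.70 (SE 0.14, adjusted p = 0.111). Without siQ61K poly(dA:dT) replicate 1 and siNC DMSO replicate 3, 3 members were called higher and 0 lower. Leaving out 1 library gave 1 higher without siQ61K poly(dA:dT) replicate 3, and 1 lower without siQ61K poly(dA:dT) replicate 1 or siNC DMSO replicate 2.

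Under mutant NRAS knockdown, poly(dA:dT) went with more members higher than lower. In siQ61K poly(dA:dT) against siQ61K DMSO, 27 of 81 were called higher and 9 lower, against 6.92% higher and 18.3% lower of all genes (25.2% in all). Those are 33.3% and 11.1% of the members. The median log2 fold change was 0.15 for members and -0.15 for all genes. Median-of-ratios scaling, which moved the median of all genes to -0.02, gave 29 higher and 1 lower, against 12.2% and 12.1% of all genes. They were 31 and 16 without siQ61K poly(dA:dT) replicate 1 and siNC DMSO replicate 3. The counts were 2 and 1 without siQ61K poly(dA:dT) replicate 2 and siQ61K DMSO replicate 3 together, where calls among all genes were 0.679% higher and 0.299% lower. Leaving out 1 library gave 31 and 15 without siQ61K poly(dA:dT) replicate 1, 14 and 2 without replicate 2 and 15 and 2 without replicate 3 of that group. It gave 23 and 3 without siQ61K DMSO replicate 1, 23 and 4 without replicate 2 and 15 and 6 without replicate 3.

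RPS29 had 3237, 4286 and 4313 TPM in siQ61K poly(dA:dT), against 1784, 1475 and 1378 TPM in siQ61K DMSO, and rose by 1.35 (SE 0.18, adjusted p = 8.20e-04). RPL39 had 3393, 5639 and 4606 TPM in siQ61K poly(dA:dT), against 2238, 2166 and 1529.7 TPM in siQ61K DMSO, a rise of 1.19 (SE 0.18, adjusted p = 0.00226). RPS21 had 6514, 8809 and 7906 TPM in siQ61K poly(dA:dT), against 4846, 4695 and 3485 TPM in siQ61K DMSO, a rise of 0.84 (SE 0.15, adjusted p = 0.00485). In all 3 genes every poly(dA:dT) library exceeded every DMSO library. RPS7 went the other way, with 839.6, 714 and 636 TPM in siQ61K poly(dA:dT), against 1505, 1661 and 1261 TPM in siQ61K DMSO. It fell without overlap, at -1.01 (SE 0.17, adjusted p = 0.00382). RPS2 had 7613, 4854 and 4786 TPM in siQ61K poly(dA:dT), against 9863, 9303 and 7656 TPM in siQ61K DMSO, a log2 difference of -0.66 (SE 0.19, adjusted p = 0.0217). RPL15, a large-subunit protein, also fell (-0.65, SE 0.16, adjusted p = 0.0118). The call of RPS2 was lost without siQ61K poly(dA:dT) replicate 2 or 3 or siQ61K DMSO replicate 1 or 2 (highest adjusted p = 0.0955). That of RPL15 was lost without siQ61K poly(dA:dT) replicate 2 or 3 (highest adjusted p = 0.0569). Those of RPS29, RPL39, RPS21 and RPS7 were made whichever 1 library was left out.

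The interaction asks whether the poly(dA:dT) response under siQ61K differed from that under siNC. It was called positive for 23 of 81 members and negative for 13, against 6% positive and 12.1% negative among all genes (18.1% in all). Those are 28.4% and 16% of the members. The median was 0.11 for members and -0.06 for all genes. With median-of-ratios scaling the counts were 18 and 6 (8.79% and 10.4% of all genes), and without siQ61K poly(dA:dT) replicate 1 and siNC DMSO replicate 3 they were 27 and 22. Leaving out siQ61K poly(dA:dT) replicate 1, 2 or 3 gave 27 and 21, 12 and 8, or 11 and 5. Without siNC poly(dA:dT) replicate 1 or 2 there were 14 and 6 or 18 and 6, and without siQ61K DMSO replicate 1 or 3 there were 15 and 6 or 14 and 15. Without siNC DMSO replicate 1 or 2 there were 11 and 5 or 16 and 6. RPS29 had the lowest adjusted p among members, with an interaction of 2.33 (SE 0.25, adjusted p = 6.20e-04), from the values above. RPS21 (1.36, SE 0.21, adjusted p = 0.00552) and RPL39 (1.56, SE 0.25, adjusted p = 0.00627) were positive too. RPL37A, a zinc-binding large-subunit protein, had 6857, 7205 and 7240.4 TPM in siQ61K poly(dA:dT), 5017, 4892 and 4970.3 TPM in siNC poly(dA:dT), 4792, 5042 and 3488 TPM in siQ61K DMSO and 6879, 6386 and 8053 TPM in siNC DMSO. Its level in siQ61K poly(dA:dT) thus overlaps that in siNC DMSO, while both other groups lie lower, and its interaction was 1.21 (SE 0.18, adjusted p = 0.00474). The lowest values were those of RPS7 (-1.27, SE 0.24, adjusted p = 0.00929) and RPS2 (-1.22, SE 0.26, adjusted p = 0.0128). Calls of these 6 genes were made whichever 1 library was left out. Each comparison above shares groups with the others, so their calls are not independent.

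**Figure D2:**
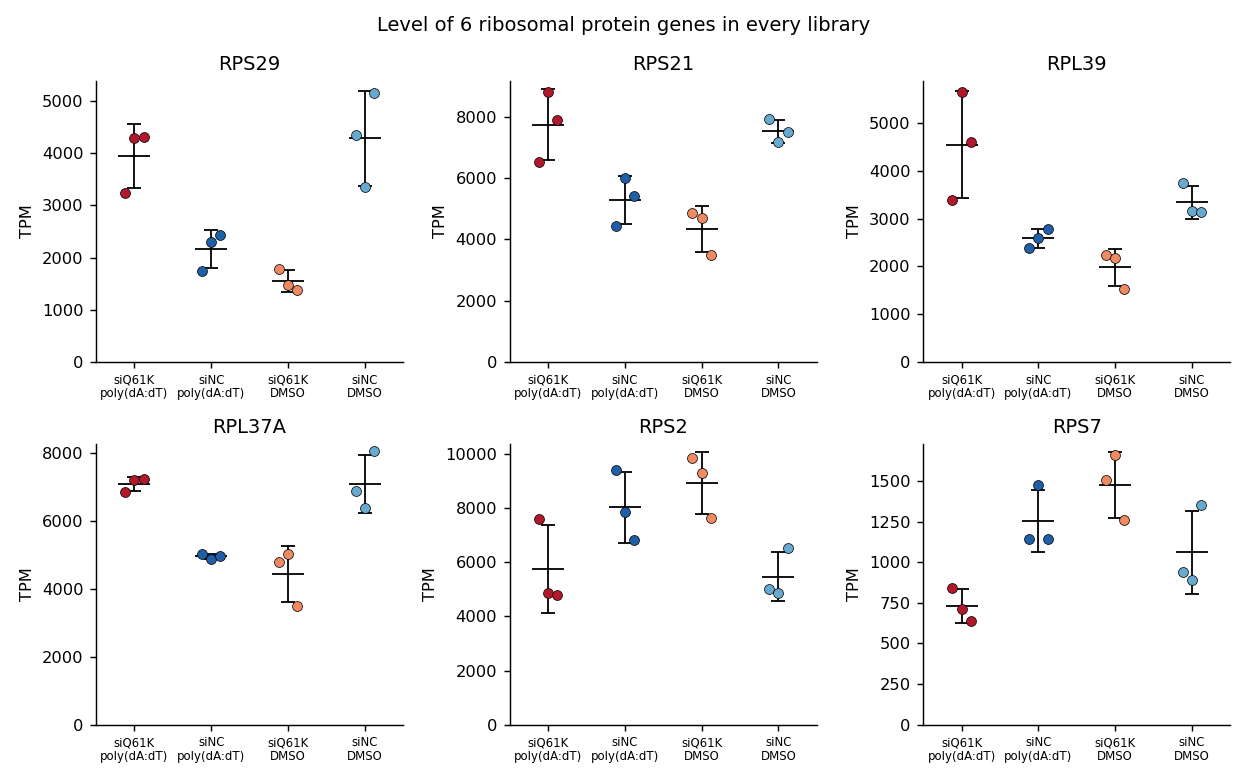
Level in TPM of 6 ribosomal protein genes, with a point for each library and the mean and SD of each group of 3 in black. RPS29, RPS21, RPL39 and RPL37A are low in siNC poly(dA:dT) and siQ61K DMSO, and RPS7 is lowest in siQ61K poly(dA:dT), between 636 and 840 TPM.

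Log2 fold changes of the members were related to the GC content of their transcripts, as were those of all genes with a known GC content. GC content is the share of G and C bases, taken here as the median over a gene's transcripts in the GENCODE 29 basic set. Only protein-coding transcripts were used where a gene has them. The members were put in 3 classes of 27, low at 41.0% to 47.3%, middle at 47.4% to 52.0% and high at 52.1% to 62.4%. Percentages in brackets below are of the 27 members of a class. For siQ61K against siNC with DMSO, 0 rose and 7 fell (25.9%) in the low class. In the high class 13 rose (48.1%) and 2 fell (7.41%). Among all genes in the GC range of the low class, 4.17% were called higher and 26.6% lower, and in that of the high class 32.1% and 4.07%. For poly(dA:dT) against DMSO under siQ61K, 18 rose (66.7%) and 0 fell in the low class. In the high class 2 rose (7.41%) and 7 fell (25.9%). The all-gene shares there were 13% higher and 2.03% lower in the low range, and 1.47% and 39.2% in the high range. For siQ61K against siNC with poly(dA:dT), 9 rose (33.3%) and 0 fell in the low class. Of all genes in that range, 10.9% were higher and 7.13% lower. In the high class 1 rose (3.7%) and 0 fell, against 5.98% and 19.2% of all genes there. Members of the high class had a median log2 fold change of 5.16e-05 there, with 14 of 27 above 0. Interactions were positive for 14 (51.9%) and negative for 0 in the low class. In the high class they were positive for 2 (7.41%) and negative for 10 (37%). Of all genes, 11.7% were positive and 0.425% negative in the low range, and 1% and 28.5% in the high range. The Spearman correlation of GC content with the log2 fold change for siQ61K against siNC with DMSO was 0.56 across the 81 members and 0.52 across all 14299 genes with a known GC content. With poly(dA:dT) it was -0.49 across members and -0.25 across all genes. For poly(dA:dT) under siNC it was 0.48 and 0.51, under siQ61K -0.57 and -0.59, and for the interaction -0.56 and -0.68, members first. Genes in such a correlation share their libraries and are not replicates, and the part of library chemistry in this relation was not tested.

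**Figure D3:**
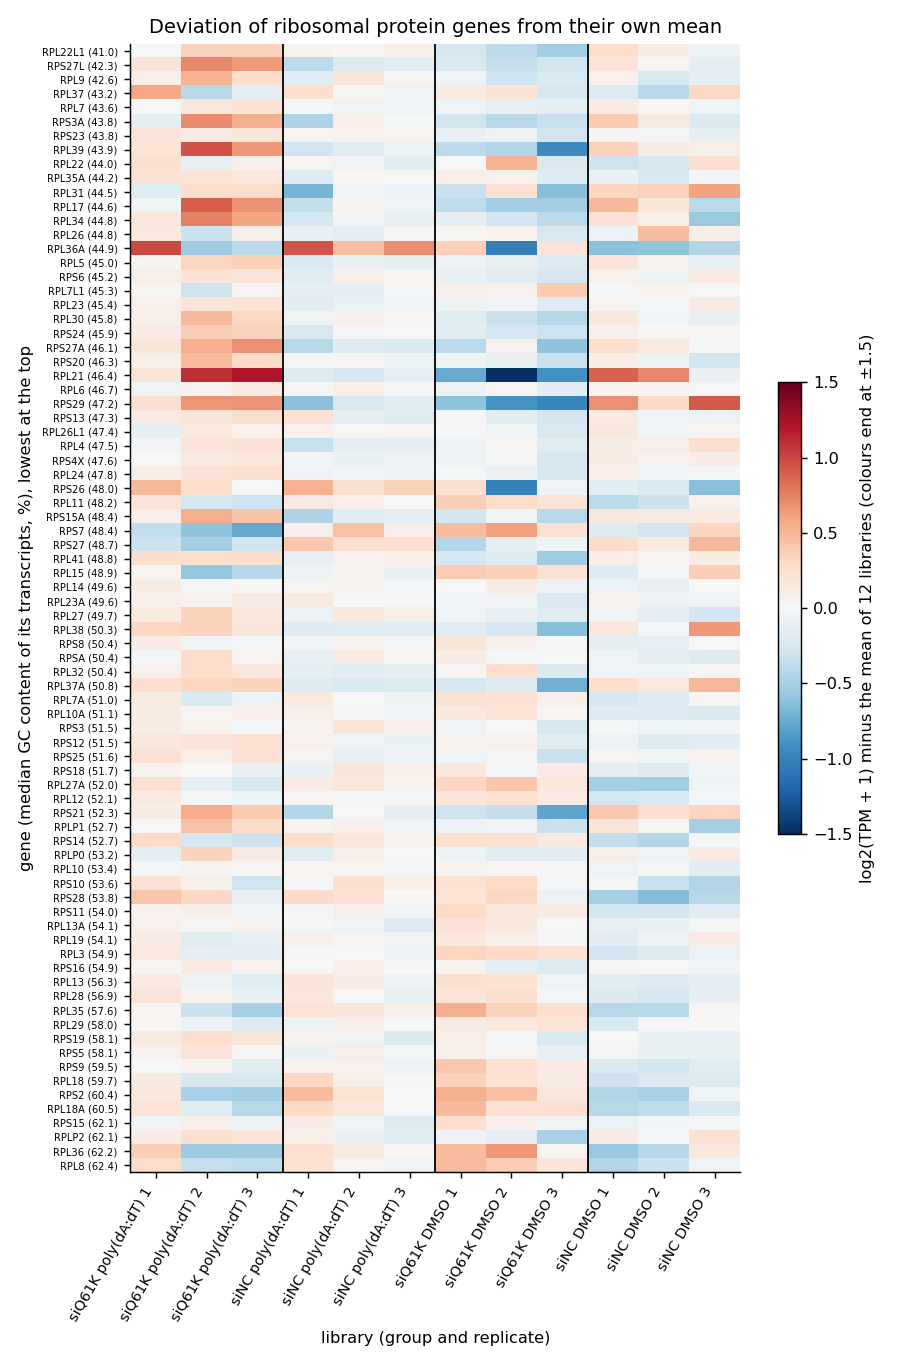
Deviation of tested ribosomal protein genes, all but 1, each from its own mean, as log2(TPM + 1), in the 12 libraries, with genes in order of GC content. Genes of low GC content at the top are mostly red in siQ61K poly(dA:dT) and blue in siQ61K DMSO, RPS7 is blue in all siQ61K poly(dA:dT) libraries, and siQ61K poly(dA:dT) replicate 1 is paler than the other replicates of its group.

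When each library was smoothed over GC content and transcript length and the trend removed, part of the calls stayed. The correction left 16 higher and 8 lower for siQ61K against siNC with DMSO (13.1% and 13.9% of all genes, 27% in all), and 15 and 3 with poly(dA:dT) (13.8% and 13.6%, 27.4% in all). It left 0 and 0 for poly(dA:dT) under siNC (0.154% and 0.0699%, 0.224% in all), 17 and 3 under siQ61K (4.54% and 2.65%, 7.19% in all) and 9 and 2 for the interaction (1.13% and 0.476%, 1.61% in all). Calls made again in the same direction were 21 of 32 for siQ61K against siNC with DMSO, 14 of 16 with poly(dA:dT), 18 of 36 for poly(dA:dT) under siQ61K and 11 of 36 for the interaction. RPS29 had an interaction of 2.12 (adjusted p = 0.00175), RPS21 of 1.43 (adjusted p = 0.0174), RPL37A of 1.19 (adjusted p = 0.00810), RPL39 of 1.18 (adjusted p = 0.0458), RPS27L of 0.66 (adjusted p = 0.0344) and RPS7 of -1.41 (adjusted p = 0.0174). RPS2, among the members richest in GC, had -0.68 and was no longer called (adjusted p = 0.0805). The correlation with GC content across members then lay between -0.21 and 0.15 in the 5 comparisons.

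**Figure D4:**
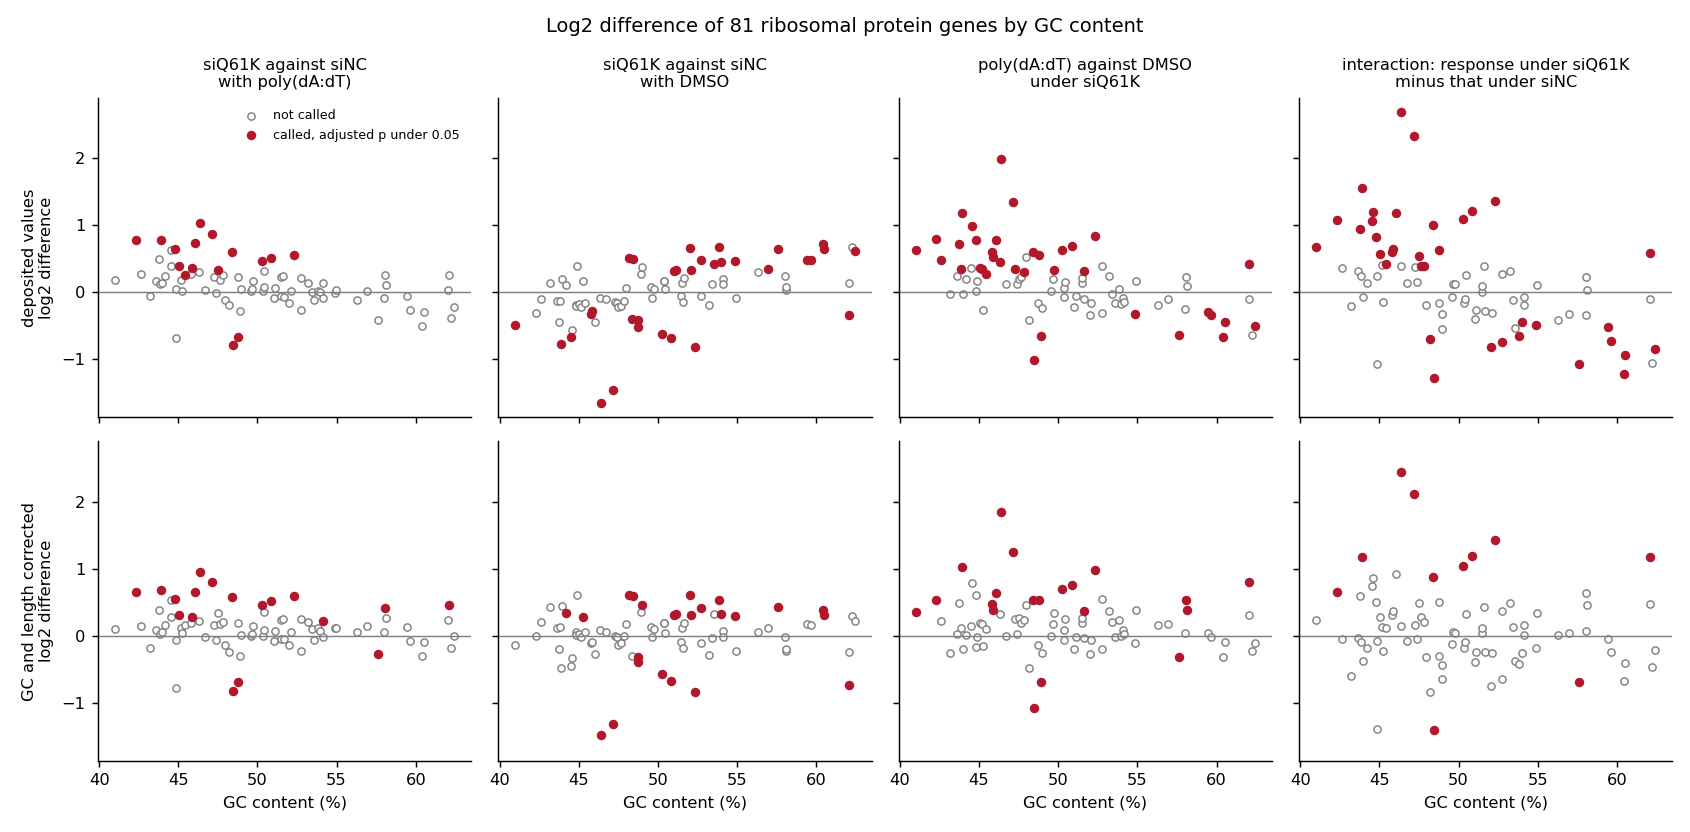
Log2 difference of each of 81 ribosomal protein genes against GC content (%), for 4 comparisons, with deposited values above and values corrected for GC content and length below. Filled points are called (adjusted p under 0.05). Before correction points slope up with GC content for siQ61K against siNC with DMSO (Spearman 0.56) and down for the interaction (-0.56), and 11 interaction calls remain after it.

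Members with roles outside the bulk of the subunits were followed in each comparison. The acidic stalk, RPLP0 with RPLP1 and RPLP2, recruits elongation factors. RPLP2 had 2491, 2726 and 2649 TPM in siQ61K poly(dA:dT), 2439, 2145 and 2036 TPM in siNC poly(dA:dT), 2225, 2078 and 1639 TPM in siQ61K DMSO and 2505, 2283 and 2693 TPM in siNC DMSO. It fell in siQ61K against siNC with DMSO (-0.34, SE 0.12, adjusted p = 0.0427) and rose with poly(dA:dT) under siQ61K (0.42, SE 0.12, adjusted p = 0.0229). RPLP2 has a GC content of 62.1% and moved with the members of low GC content, and after the correction its interaction was 1.18 (adjusted p = 0.00458), against 0.59 before it (adjusted p = 0.0300). The interaction call before correction was lost without siQ61K poly(dA:dT) replicate 2 or 3, siNC poly(dA:dT) replicate 2 or 3, siQ61K DMSO replicate 3 or siNC DMSO replicate 1 (highest adjusted p = 0.0695). With DMSO the call was lost without siQ61K poly(dA:dT) replicate 3, siNC poly(dA:dT) replicate 2, siQ61K DMSO replicate 2 or 3 or siNC DMSO replicate 1 or 3 (highest adjusted p = 0.155), and for poly(dA:dT) under siQ61K without siQ61K poly(dA:dT) replicate 2 or 3 or siQ61K DMSO replicate 3 (highest adjusted p = 0.0860). RPLP0 and RPLP1 were called in no comparison, with log2 differences of -0.18 to 0.32 for RPLP0 and -0.06 to 0.39 for RPLP1.

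RPL5 and RPL11 bind 5S rRNA together and, when ribosome assembly is disturbed, bind MDM2. Their calls differed in the comparisons below. RPL5 had 2116, 2587 and 2641 TPM in siQ61K poly(dA:dT), against 1768, 1923 and 1891 TPM in siNC poly(dA:dT), and rose by 0.39 (SE 0.11, adjusted p = 0.0193). RPL11 had 2568, 2389.5 and 2282 TPM in siQ61K DMSO, against 1495, 1579 and 2072 TPM in siNC DMSO, and rose by 0.51 (SE 0.14, adjusted p = 0.0166). Their interactions were opposite in sign, 0.57 (SE 0.15, adjusted p = 0.0235) for RPL5 and -0.70 (SE 0.20, adjusted p = 0.0318) for RPL11, and neither was called once GC content and length were corrected for, at 0.28 (adjusted p = 0.220) for RPL5 and -0.84 (adjusted p = 0.0717) for RPL11. The call of RPL5 in siQ61K against siNC with poly(dA:dT) was lost without siQ61K poly(dA:dT) replicate 2 or 3 or siNC poly(dA:dT) replicate 1 (highest adjusted p = 0.0787), and its interaction without siQ61K poly(dA:dT) replicate 2 or 3, siNC poly(dA:dT) replicate 1 or siNC DMSO replicate 1 or 2 (highest adjusted p = 0.0678). The call of RPL11 with DMSO was lost without siQ61K DMSO replicate 1 or siNC DMSO replicate 1 or 2 (highest adjusted p = 0.0800), and its interaction without siQ61K poly(dA:dT) replicate 2 or 3, siNC poly(dA:dT) replicate 1 or 2, siQ61K DMSO replicate 1 or 2 or siNC DMSO replicate 1 or 2 (highest adjusted p = 0.0877). RPS6, whose phosphorylation follows S6 kinase and RSK activity, rose with poly(dA:dT) under siQ61K (0.34, SE 0.09, adjusted p = 0.0212) and was not called elsewhere, and the call was lost without siQ61K poly(dA:dT) replicate 2 or 3 or siQ61K DMSO replicate 3 (highest adjusted p = 0.0754). RPL3, which shapes the peptidyl transferase centre, rose in siQ61K against siNC with DMSO (0.47, SE 0.10, adjusted p = 0.00297). RPL41, the smallest ribosomal protein, fell there (-0.41, SE 0.10, adjusted p = 0.00784). For poly(dA:dT) under siQ61K, RPL3 fell (-0.33, SE 0.10, adjusted p = 0.0266), a call lost without siQ61K poly(dA:dT) replicate 2 or 3 or siQ61K DMSO replicate 1 or 2 (highest adjusted p = 0.107). RPL41 rose in that comparison (0.56, SE 0.10, adjusted p = 0.00454), and so did RPL5 (0.37, SE 0.11, adjusted p = 0.0244), whose call was lost without siQ61K poly(dA:dT) replicate 2 or 3 or siQ61K DMSO replicate 1 or 3 (highest adjusted p = 0.101). RPL10, RPL13A, RPS19 and RPSA were called in no comparison, with log2 differences between -0.12 and 0.26.

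Several members are paralogs that can replace a standard protein. RPL22L1 stood above RPL22 in this line, at a mean of 1673 TPM against 752 TPM. RPL22L1 had 1372, 1257 and 1146 TPM in siQ61K DMSO, against 1980.1, 1786 and 1558 TPM in siNC DMSO, and fell (-0.49, SE 0.12, adjusted p = 0.00668). RPL22 had 736, 1065 and 636 TPM in siQ61K DMSO, against 597, 617 and 886 TPM in siNC DMSO, and was not called (0.20, SE 0.19, adjusted p = 0.434). RPL22L1 has the lowest GC content of the tested members, 41.0%, and after correction its log2 fold change was -0.14 (adjusted p = 0.284). RPS27L had 618, 890.1 and 841 TPM in siQ61K poly(dA:dT), against 412, 466 and 479.7 TPM in siNC poly(dA:dT), a comparison in which the call of its paralog RPS27 was lost with copies added. RPL26L1 was listed above RPL26 (mean 127 against 71.9 TPM), and RPL7L1 (81.3 TPM) far under RPL7 (3189 TPM). Near-identical copies were sought only among pseudogenes, so reads of RPL26 assigned to other entries would be missed. The order of RPL26 and RPL26L1 is therefore uncertain. None of RPL26, RPL26L1, RPL7 and RPL7L1 was called in any comparison. RPL10L and RPL39L, known from testis, are listed at 0 in all 12 libraries, and RPL3L, known from muscle, reached at most 0.488 TPM.

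RPL21, RPS26 and RPL36A share sequence with other entries so far that their own values are uncertain. A blastn search of GENCODE 29 transcripts (at least 95% identity over at least 70% of the shorter one) found 292 pseudogene copies of 66 members. Of the copies' summed TPM, 89.9% lay in 3 entries that are identical to a member over their whole length, RPL21P16 (483 bases, RPL21), AC004057.1 (348 bases, RPS26) and AC116533.1 (321 bases, RPL36A). Their first 30 bases, with the start codon in capitals, are shown because reads from them cannot be told from reads of the genes.
RPL21P16: ATGacgaacacaaagggaaagaggagaggc
AC004057.1: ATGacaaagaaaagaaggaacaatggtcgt
AC116533.1: ATGgttaacgtccctaaaacccgccggact
On GRCh38 these are chr10:120355154-120355183 on the minus strand for RPL21P16, chr4:113214364-113214393 on the minus strand for AC004057.1 and chr11:16974984-16975013 on the minus strand for AC116533.1. RPL21 had 1659, 3119 and 3352 TPM in siQ61K poly(dA:dT), 1262, 1213 and 1324 TPM in siNC poly(dA:dT), 854, 422 and 768 TPM in siQ61K DMSO and 2664, 2394 and 1350.5 TPM in siNC DMSO. RPL21P16 had 3647, 4432 and 3985 TPM in siQ61K poly(dA:dT), 3710.2, 4109 and 3866 TPM in siNC poly(dA:dT), 3264, 4137 and 3118 TPM in siQ61K DMSO and 3773, 3313 and 2594 TPM in siNC DMSO. Its values exceed those of RPL21 in every library.

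The large changes of RPL21 shrank once copies were added to it. With copies added the log2 fold change in siQ61K against siNC with DMSO was -0.33 (adjusted p = 0.156), against -1.65 for RPL21 alone. With poly(dA:dT) it was 0.37 (adjusted p = 0.142), against 1.03, a call of RPL21 alone that was lost without siQ61K poly(dA:dT) replicate 2 or 3 or siNC poly(dA:dT) replicate 1, 2 or 3 (highest adjusted p = 0.119). The rise with poly(dA:dT) under siQ61K was 0.67 (adjusted p = 0.0138), against 1.99, and the interaction 0.69 (adjusted p = 0.0593), against 2.68. RPL36A reversed, with an interaction of 0.90 (adjusted p = 0.0417) with copies and -1.08 (adjusted p = 0.180) without. For RPS26 the copies held 84.7% of the sum of gene and copies, for RPL21 68.4% and for RPL36A 65.3%. RPS27 had 24.2% of its sum in copies, and RPS28 12.6%. RPS29 had an interaction of 2.31 (adjusted p = 6.62e-04) with copies added.

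**Figure D5:**
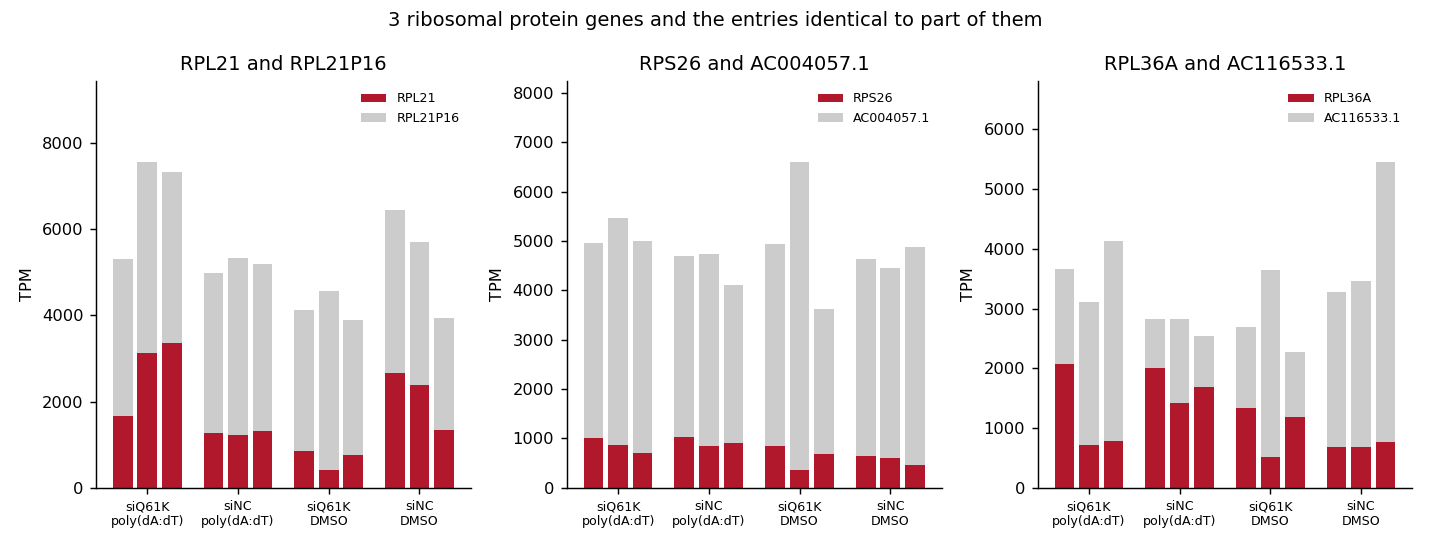
TPM of RPL21, RPS26 and RPL36A (red) and of the entry identical to each over its length (grey, stacked on top), with a bar for each library in replicate order. The share of red varies between libraries of the same group, as in siQ61K DMSO, where RPL21 stands at 854, 422 and 768 TPM.

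Genes that work with the ribosome were examined as lists. FAU and RPL36AL, ribosomal protein genes outside the naming rule, were called in no comparison. In siQ61K against siNC with DMSO, 19 of 78 mitochondrial ribosomal protein genes were called higher and 17 lower, 24.4% and 21.8%, against 16.6% and 14.8% of all genes. Elongation factors gave 3 higher and 1 lower of 7, with EEF1D (0.46) and EEF1G (0.47), subunits of the factor that reloads EEF1A with GTP, among those that rose. Of 26 initiation factors, 5 rose and 6 fell, among them EIF4E, the cap-binding protein (-0.55, SE 0.10, adjusted p = 0.00136). Of 10 other TOP mRNAs, 1 rose and 5 fell, with BTF3 at -0.42. In the list of growth signalling genes, 6 of 15 rose and 2 fell. MYC had 54.7, 46.4 and 56.2 TPM in siQ61K DMSO, against 27.1, 30.7 and 28.6 TPM in siNC DMSO, and rose by 0.84 (SE 0.12, adjusted p = 2.54e-04). RHEB, the GTPase that activates mTORC1, fell (-0.47, SE 0.10, adjusted p = 0.00371). Of 10 chaperones and assembly factors, 2 rose and 2 fell. GRWD1, an assembly factor of the large subunit, rose by 1.03 (SE 0.22, adjusted p = 0.00381). Correcting for GC content and length ended the calls of EEF1D (0.04, adjusted p = 0.844) and BTF3 (-0.23, adjusted p = 0.120), and left those of EEF1G (0.28, adjusted p = 0.0192), EIF4E (-0.27, adjusted p = 0.0238), MYC (0.61, adjusted p = 1.24e-04), RHEB (-0.28, adjusted p = 0.0104) and GRWD1 (0.61, adjusted p = 0.0104).

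In siQ61K against siNC with poly(dA:dT), where 8.71% of all genes were higher and 12.6% lower, mitochondrial ribosomal protein genes gave 10 higher and 8 lower of 78, elongation factors 0 and 1 of 7, initiation factors 2 and 4 of 26, other TOP mRNAs 2 and 1 of 10, and growth signalling genes 2 and 2 of 15. EIF4A1, the helicase of the cap-binding complex, fell there (-0.73, SE 0.15, adjusted p = 0.00474), as did the TOP mRNA of HNRNPA1 (-0.67, SE 0.13, adjusted p = 0.00310). For poly(dA:dT) under siNC no gene of these lists was called.

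For poly(dA:dT) against DMSO under siQ61K, 6.92% of all genes were higher and 18.3% lower. EEF2, which moves the ribosome along the mRNA, had 1260.4, 794 and 855 TPM in siQ61K poly(dA:dT), against 1971, 1818 and 2229.9 TPM in siQ61K DMSO, and fell by 1.07 (SE 0.16, adjusted p = 0.00226). Of the 7 elongation factors, 2 fell and 0 rose. Of 10 other TOP mRNAs, 5 rose and 2 fell, with NACA at 0.38 (SE 0.09, adjusted p = 0.00939) and GAS5 at 0.38 (SE 0.09, adjusted p = 0.0103). Growth signalling genes gave 1 rise and 6 falls of 15, including RPTOR, the mTORC1 scaffold (-1.03, SE 0.19, adjusted p = 0.00545), and the TOP-binding LARP1 (-0.93, SE 0.24, adjusted p = 0.0147), whose call was lost without siQ61K poly(dA:dT) replicate 2 or 3 or siQ61K DMSO replicate 3. Of 78 mitochondrial ribosomal protein genes, 17 rose and 12 fell, led by MRPL33 at 1.09. MDM2, a ubiquitin ligase that ribosomal proteins bind, rose (0.70), and CDKN1A, a cell cycle inhibitor, fell (-0.51). Correcting for GC content and length ended the calls of GAS5 (0.26, adjusted p = 0.0522), RPTOR (-0.37, adjusted p = 0.0640), LARP1 (-0.52, adjusted p = 0.0544), MDM2 (0.38, adjusted p = 0.169) and CDKN1A (-0.10, adjusted p = 0.276), and left those of EEF2 (-0.50, adjusted p = 0.00952) and NACA (0.33, adjusted p = 0.0253). In siQ61K against siNC with poly(dA:dT) it left those of EIF4A1 (-0.71, adjusted p = 0.00273) and HNRNPA1 (-0.73, adjusted p = 0.00486).

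Across the 12 libraries, genes whose log2(TPM + 1) ran most like the mean of the 81 members were TGFB2-OT1 (Pearson r = 0.91), COPS5 (0.90), ZSWIM8-AS1 (0.88), NOP10 (0.87) and NDUFS5 (0.87). These are the 5 highest values among all tested genes other than members, given as a description with n = 12 libraries in 4 groups.

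In siQ61K against siNC with DMSO, 11 of the 12 lower members with a RefSeq start window, 9 of the 14 higher ones and 23 of the 40 not called had a C followed by at least 4 pyrimidines at the annotated start. For poly(dA:dT) against DMSO under siQ61K the counts were 16 of 22 higher, 3 of 6 lower and 24 of 38 not called. In the same order they were 7 of 11, 1 of 2 and 35 of 53 for siQ61K against siNC with poly(dA:dT). For the interaction they were 13 of 19 positive, 5 of 9 negative and 25 of 38 not called. Of all members with a window, 43 of 67 (64.2%) had such a start. No test of these counts was made.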

How the data were processed

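RNA-seq of 12 HT1080 libraries was deposited by the authors as 1 table of TPM per gene symbol, with column sums of 964007 to 967331. Salmon 0.8.0 and hg19 are named in the submitters' processing notes, while 93.7% of the entry names occur in GENCODE 29. The annotation used is not given in the sources used here. Columns carry short codes, and matching them to samples took SI as siQ61K and PD as poly(dA:dT), which is an inference. The 984 entries that share 58 symbols were left out.

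Values were analysed as log2(TPM + 1) for 14722 genes in 1 limma fit over all 4 groups (limma 3.58.1, R 4.3.3, variance trend, two-sided, Benjamini-Hochberg over all genes, called at an adjusted p under 0.05). SE is the model's. Fold changes on this scale understate those of low genes. Median GC content and length over transcripts of the GENCODE 29 basic set (protein-coding ones where present) were known for 14299 genes. A lowess of span 0.3 per library was used for correction. Copies were sought with blastn 2.17.0. The fit was tested on simulated data. Alternatives were a pseudocount of 0.1, no filter, median-of-ratios scaling, the GC and length correction, pseudogenes added by name, a replicate block, and leaving out single libraries or siQ61K poly(dA:dT) replicate 2 with siQ61K DMSO replicate 3. Added after seeing the data were copies added by sequence and the fit without siQ61K poly(dA:dT) replicate 1 and siNC DMSO replicate 3.

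Members and lists were chosen with earlier results of these data known. Named members are the 3 highest and 3 lowest fold changes of each comparison, the 5 highest and 5 lowest mean levels, and a fixed set of stalk, 5S, paralog and other members. Of each list up to 3 called genes are named, by adjusted p. A few genes that these rules name are not reported here.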

Additional observations from a re-analysis of the deposited data

Results flagged for a closer look

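Named members whose poly(dA:dT) response under siQ61K differed from that under siNC by the interaction test (limma, adjusted p under 0.05) numbered 18. Positive differences on the log2 scale were those of RPL21 (2.68), RPS29 (2.33), RPL39 (1.56), RPS21 (1.36), RPL37A (1.21), RPS27A (1.18), RPS27L (1.08), RPL31 (1.06), RPL22L1 (0.67), RPL41 (0.64), RPLP2 (0.59), RPL5 (0.57) and RPS4X (0.40). Negative differences were those of RPS7 (-1.27), RPS2 (-1.22), RPL11 (-0.70), RPS28 (-0.65) and RPL3 (-0.48). After the GC and length correction RPS29, RPL21, RPS21, RPL37A, RPL39, RPLP2, RPS27L and RPS7 were called. The other 10 were not, with corrected differences of -0.84 for RPL11, 0.92 for RPS27A, 0.74 for RPL31, -0.68 for RPS2, 0.50 for RPL41, -0.42 for RPS28, 0.28 for RPS4X, 0.28 for RPL5, 0.24 for RPL22L1 and -0.19 for RPL3. With sequence copies added RPL21 had 0.69 (adjusted p = 0.0593). Single libraries decided 8 of these calls. The call of RPL22L1 was lost without siQ61K poly(dA:dT) replicate 3 or siNC DMSO replicate 1 (highest adjusted p = 0.0543). The call of RPS4X was lost without siQ61K poly(dA:dT) replicate 2 or 3, siNC poly(dA:dT) replicate 1, 2 or 3, siQ61K DMSO replicate 1 or 3 or siNC DMSO replicate 1, 2 or 3 (highest adjusted p = 0.0937). Calls of RPL31, RPL3, RPS28, RPL11, RPL5 and RPLP2 were lost with at least 5 libraries each, with a highest adjusted p of 0.0801 for RPL31, 0.0861 for RPL3, 0.102 for RPS28, 0.0877 for RPL11, 0.0678 for RPL5 and 0.0695 for RPLP2.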

How the results depend on the processing

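Counts of called members (higher, then lower) changed little with a pseudocount of 0.1, with pseudogenes added by name or with a replicate block, where each stayed within 1.5 times. Without a filter, which let in 29639 genes, they were 9 and 8 for siQ61K against siNC with DMSO, 5 and 2 with poly(dA:dT), 13 and 3 for poly(dA:dT) under siQ61K, and 9 and 2 for the interaction. Median-of-ratios scaling gave 9, 1 and 6 lower for siQ61K against siNC with DMSO, poly(dA:dT) under siQ61K and the interaction. Correcting for GC content and length gave 8 lower for siQ61K against siNC with DMSO, 17 and 3 for poly(dA:dT) under siQ61K and 9 and 2 for the interaction. Sequence copies left 1 lower for siQ61K against siNC with poly(dA:dT). Without siQ61K poly(dA:dT) replicate 2 and siQ61K DMSO replicate 3 there were 9 lower with DMSO, 7 higher with poly(dA:dT), 2 and 1 for poly(dA:dT) under siQ61K, and 7 and 4 for the interaction. Without siQ61K poly(dA:dT) replicate 1 and siNC DMSO replicate 3 there were 23 and 13 with poly(dA:dT), 3 higher for poly(dA:dT) under siNC, 16 lower under siQ61K and 22 negative interactions. The cause of these shifts was not tested.

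Leaving out each library in turn gave 11 to 22 higher and 9 to 18 lower for siQ61K against siNC with DMSO, 6 to 20 and 2 to 11 with poly(dA:dT), 0 to 1 and 0 to 1 for poly(dA:dT) under siNC, 14 to 31 and 2 to 15 under siQ61K, and 11 to 27 and 5 to 21 for the interaction. Calls made whichever library was left out were 18 of 32 for siQ61K against siNC with DMSO, 8 of 16 with poly(dA:dT), 15 of 36 for poly(dA:dT) under siQ61K and 16 of 36 for the interaction.

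The sign changed in 3 cases. For siQ61K against siNC with DMSO, CDKN1A had 0.29 (limma, adjusted p = 0.0346). After the GC and length correction CDKN1A had -0.00449 (adjusted p = 0.965). The EIF4A2 interaction became -0.0269 after that correction (adjusted p = 0.911). Both corrected values lie close to no difference, so a change of direction is not shown for these genes. The RPL36A interaction became 0.895 with sequence copies (adjusted p = 0.0417). Correlations of same-numbered replicates' deviations ran from -0.172 to 0.102, with 1 of 12 over 0.1. They show no strong pairing by number. Being deviations from means of 3 libraries, they cannot exclude one. The replicate block gave 17 and 12 for siQ61K against siNC with DMSO, 12 and 2 with poly(dA:dT), 0 and 0 for poly(dA:dT) under siNC, 27 and 9 under siQ61K, and 19 and 13 for the interaction. TPM keeps no depth, so counting error is unknown.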
